A study of Mus musculus with 10 samples.

Results

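Transcripts of 10 melanin pigment genes were followed in 10 mouse retina libraries. The genes are Tyr, Tyrp1 and Dct (enzymes of melanin synthesis), Pmel, Mlana and Gpr143 (melanosome structure and membrane), Oca2 and Slc45a2 (transport across the melanosome membrane), Tspan10 (a tetraspanin of pigmented eye tissue) and Mitf (the transcription factor of pigment cells). They were chosen by gene symbol, as genes of the pigment epithelium and uvea, and all 10 were found among the 25905 genes of the deposited table. The libraries are the left and the right retina of 5 wild-type C57BL/6J mice, a pigmented strain, numbered 61, 64, 65, 66 and 68 and taken on postnatal day 34. Each mouse had worn a lens of -20 dioptres, held in a goggle, over 1 eye for 10 days from postnatal day 24, with ketamine and xylazine given when the goggle was put on, and its other eye had no lens. Such a lens drives the eye towards myopia. The labels name the side and the mouse of each library and not the eye that wore the lens, so the groups compared here are 5 left and 5 right retinas, and no library is called treated or control. There was no mouse without a lens.

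Melanin is made inside melanosomes, organelles in which Pmel fibrils form a scaffold, tyrosinase begins the oxidation of tyrosine, and ion and solute transporters set the conditions under which the enzymes work. MITF, a basic helix-loop-helix leucine zipper protein, binds short E-box letters in the promoters of many pigment genes, and OTX2 acts with it in the pigment epithelium. In the eye melanin is held by the retinal pigment epithelium, by the pigmented epithelia of iris and ciliary body and by the neural crest melanocytes of the uvea. The neural retina makes none.

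The letters that MITF is known to bind stood close to the start of several of these genes. RefSeq promoter windows (GRCm38.p6, 250 bases before to 50 bases after each transcription start) were at hand for 6 of the 10 genes, with 3 windows for Mitf and 1 each for Tyr, Tyrp1, Dct, Oca2 and Tspan10. The letters searched, on both strands, were the E-box CATGTG, the longer M-box form TCATGTG (which contains the first), the other E-box CACGTG, and the OTX-type motif GGATTA. The stretches that hold TCATGTG are printed because they are what the enzyme genes have in common, 5′ to 3′ on the strand of the gene. Capitals mark TCATGTG, or its reverse complement where the motif lies on the opposite strand.
Tyr (chr7:87493513-87493574, minus strand): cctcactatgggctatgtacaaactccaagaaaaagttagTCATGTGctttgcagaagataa
Tyrp1 (chr4:80834154-80834183, plus strand): gtggggagggagTCATGTGctgcctagtag
Dct, nearer stretch (chr14:118052376-118052437, minus strand): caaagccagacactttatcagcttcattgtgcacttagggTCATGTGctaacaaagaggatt
Dct, farther stretch (chr14:118052457-118052496, minus strand): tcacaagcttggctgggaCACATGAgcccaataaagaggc
Tspan10 (chr11:120442570-120442630, plus strand): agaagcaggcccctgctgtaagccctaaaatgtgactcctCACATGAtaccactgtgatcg

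The motif TCATGTG was in the windows of 4 of the 6 genes (4 of their 8 windows), and 4.31% of the 27025 genes with a window and 3.77% of all 32851 RefSeq promoter windows hold it. It began 22 bases before the start in Tyr, 47 bases before it in Tyrp1 and 21 bases before it in Tspan10, and in Dct it stood 151 and 232 bases before the start. These distances are from the RefSeq start. The deposited gene model of Tyrp1 starts 90 bases farther upstream, so that by the deposited coordinates its motif lies inside the gene. The shorter CATGTG was in 5 of the 6 genes (5 of 8 windows), Oca2 being the additional gene, and in 15.9% of all genes and 14.2% of all windows. GGATTA was found for Tyrp1, Dct and Mitf (3 of 8 windows) and in 8.14% of all genes and 7.06% of all windows. CACGTG was found in none of the 6 genes, and in 8.09% of all genes and 7.15% of all windows. On their own strand Tyr, Tyrp1 and the nearer stretch of Dct share the 10 letters GTCATGTGCT, which 61 of the 32851 windows hold (0.186%). That run was picked after the windows had been read. A match is a description of the letters, not of a bound site.

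**Figure D1:**
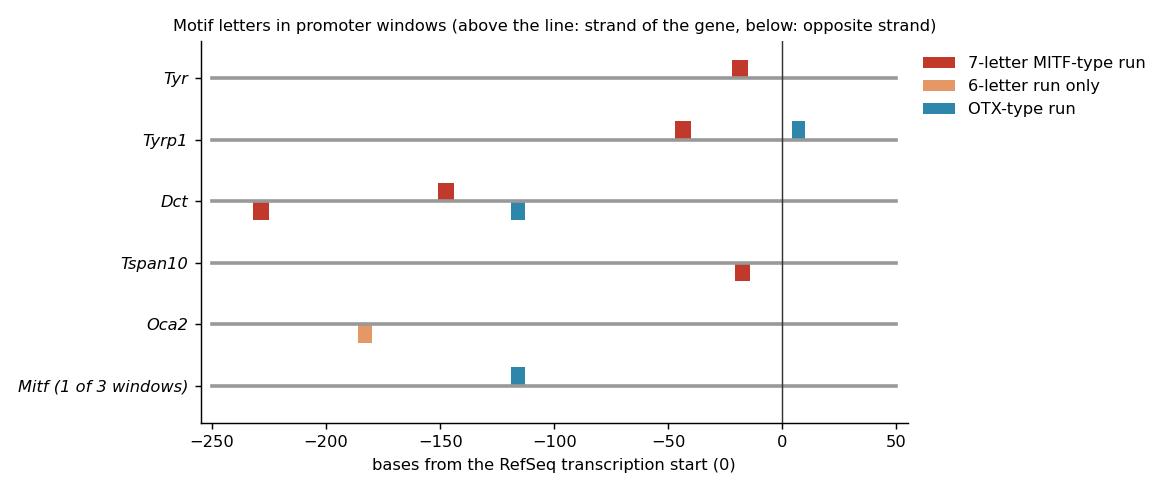
Positions of the searched motifs in the RefSeq promoter windows of 6 pigment genes, in bases from the transcription start, with motifs on the gene's strand drawn above each line and those on the opposite strand below it. The TCATGTG run (red) lies within 50 bases of the start in Tyr, Tyrp1 and Tspan10 and farther upstream, in a pair, in Dct; orange is CATGTG outside TCATGTG and blue is GGATTA.

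The values are CPM, read counts scaled to a common library size, and 1 CPM stood for 89.7 to 113.8 counts, so that the pigment genes rest on 1 to 803 counts in a library. The libraries held 29692700 to 37261600 counts in listed genes. Listed genes summed to 321661 to 346696 CPM, so most of the total that the values are scaled to lies outside them. Levels given here are therefore lower than CPM scaled to listed genes alone would be, and the filter of 1 CPM is on this scale. The labelled tissue was plain in its markers, with 12 rod genes summing to 12589 to 14582 CPM, against 9.19 to 21.5 CPM for the 10 pigment genes. Beside them, lens genes were far higher in the right retina of mouse 65 than elsewhere (910.4 CPM in sum, against 12.9 to 159.4), and skeletal muscle genes in the left retina of mouse 68 (65.6 CPM, against 1.66 to 3.81). For 1 library, mouse 64 right, the labels report a damaged raw file with fewer reads in 1 direction than in the other. Differences of the pigment genes between sides are given with and without these mice, and so are those of several other genes and lists.

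Per length of exon the pigment genes spread over a wide range. Pmel, Tyrp1 and Dct were highest, at 0.934, 0.900 and 0.876 CPM per kb of exon (mean of 10 libraries), and Mitf followed at 0.637. Mlana (0.272), Tspan10 (0.187) and Tyr (0.115) formed a middle range, and Oca2 (0.0749), Slc45a2 (0.0317) and Gpr143 (0.0230) were lowest. The ranges of all neighbours in this order overlapped. Pmel exceeded Tyrp1 in 7 of 10 libraries, Tyrp1 exceeded Dct in 5 and Dct exceeded Mitf in 7, so the order of the leading genes is not set beyond their spread. Mitf exceeded Mlana, and Oca2 exceeded Slc45a2, in 10 of 10. The lengths are those of the union of a gene's exons in GENCODE M21, 1.057 kb for Mlana to 7.108 kb for Tyr, and a gene whose long exons are rarely used comes out low on this scale.

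**Figure D2:**
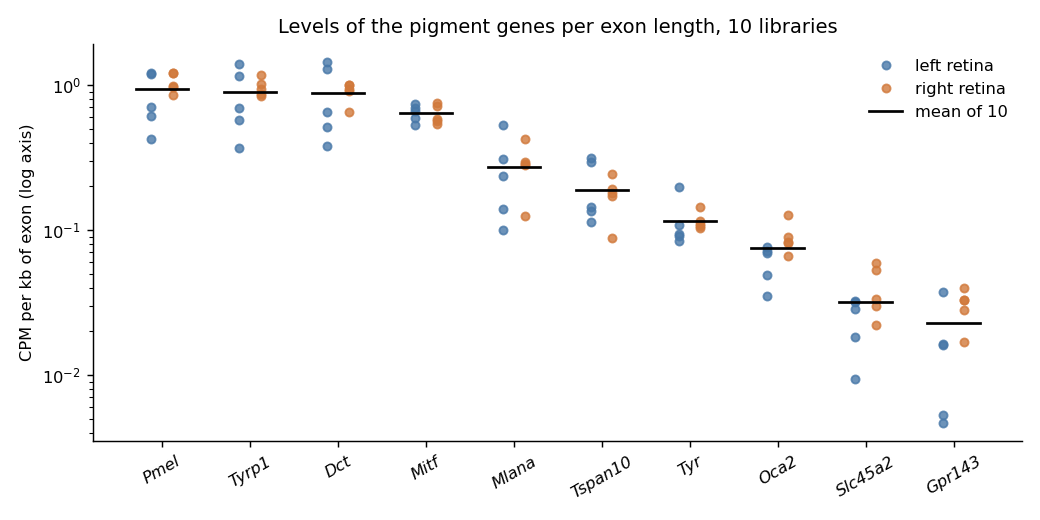
CPM per kb of exon (log axis) of the 10 pigment genes in 5 left (blue) and 5 right (orange) retinas, with a bar at the mean of 10 libraries. The means run from 0.934 for Pmel to 0.0230 for Gpr143, and the left retinas are spread more widely than the right ones for Pmel, Tyrp1 and Dct.

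Among the enzymes Dct had the most counts. Dct (chr14:118012790-118052244, GRCm38), which encodes dopachrome tautomerase, stood at 8.47, 7.55, 3.84, 3.03 and 2.22 CPM in the left retinas of mice 61, 64, 65, 66 and 68, and 5.92, 3.85, 5.51, 5.90 and 5.34 CPM in their right retinas. The left retinas held both the highest and the lowest values, a 3.81-fold range, and 4 of the right retinas lay close together with mouse 64 below them. The left mean was 5.02 ± 2.80 CPM and the right mean 5.31 ± 0.852 CPM (SD, n = 5 libraries each). Tyrp1 (chr4:80834123-80851719), the tyrosinase-related protein that acts later in the making of brown-black melanin, stood at 3.26, 3.95, 1.62, 1.96 and 1.03 CPM in left retinas and at 3.30, 2.36, 2.46, 2.64 and 2.87 CPM in right retinas. Its means were 2.36 ± 1.21 on the left and 2.73 ± 0.373 on the right. As for Dct, mouse 68 gave the lowest left value and the right retinas fell inside the range of the left ones. Tyr (chr7:87424771-87493512), the rate-limiting copper enzyme, was lower, at 0.665, 1.41, 0.762, 0.648 and 0.595 CPM in left retinas and 0.824, 0.732, 0.758, 1.03 and 0.777 CPM in right retinas. The left retina of mouse 64 stood apart from the other left retinas, and with a mean of 0.820 CPM Tyr stayed under the filter of 1 CPM that genes had to pass to be tested.

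Pmel, the fibril protein, had the pattern of Dct at a lower count. Pmel (chr10:128704195-128720238) stood at 2.77, 2.72, 1.61, 1.40 and 0.978 CPM in left retinas and at 2.24, 1.96, 2.75, 2.21 and 2.78 CPM in right retinas, with means of 1.90 ± 0.809 and 2.39 ± 0.362 CPM (SD, n = 5 each). Mice 61 and 64 were higher on the left and the other mice higher on the right. Its exons share 34 bases with those of Cdk2 and 105 bases with those of Dgka on the opposite strand; the kit keeps the strand, but whether the counting used it is not given in the sources used here. Mlana (chr19:29697824-29708634), a melanosome membrane protein needed for the processing of PMEL, stood at 0.327, 0.563, 0.247, 0.148 and 0.106 CPM in left retinas and at 0.312, 0.131, 0.301, 0.448 and 0.295 CPM in right retinas, or 10 to 52 counts. Mouse 64 held the highest left and the lowest right value. Gpr143 (chrX:152781921-152808646), the melanosome receptor mutated in ocular albinism, was the weakest of the 10 genes, with 1 to 9 counts a library and 0.00925 to 0.0791 CPM, at which single counts move its ratios.

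Oca2, a melanosomal membrane protein that raises the pH inside the organelle, was higher on the right in every mouse. Oca2 (chr7:56239760-56536518) stood at 0.285, 0.303, 0.140, 0.194 and 0.276 CPM in left retinas and at 0.356, 0.319, 0.502, 0.264 and 0.328 CPM in right retinas. The sides overlap, with means of 0.240 ± 0.0698 and 0.354 ± 0.0893 CPM (SD, n = 5 each), and the right retina of mouse 65 was the highest of all. Only in mouse 65 did the counting interval of its right over left ratio lie above 1 (3.60, 95% interval 1.91 to 7.27). No other of the 10 genes went 1 way in 5 of 5 mice. Of all 25905 genes 2.90% were higher on the right and 2.04% lower on the right in 5 of 5 mice. Slc45a2 (chr15:11000721-11029233), the other transporter, ranged from 0.0278 CPM in the left retina of mouse 66 to 0.175 CPM in the right retina of mouse 68, or 3 to 18 counts. Tspan10 (chr11:120442644-120446950) stood at 0.527, 0.563, 0.204, 0.259 and 0.244 CPM in left retinas and at 0.345, 0.160, 0.435, 0.325 and 0.306 CPM in right retinas. Its left values were high in mice 61 and 64 and low in the other 3 mice, as for Dct.

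Mitf varied less between fellow eyes than Dct, Tyrp1 and Pmel did, a contrast that was not tested. Mitf (chr6:97807052-98021349) stood at 4.61, 4.32, 3.27, 4.12 and 3.65 CPM in left retinas and at 4.44, 4.68, 3.48, 3.58 and 3.34 CPM in right retinas. Its means were 3.99 ± 0.534 on the left and 3.90 ± 0.611 on the right. Fellow eyes had close values in each mouse, mice 61 and 64 were high and mouse 65 low, and the whole range over the 10 libraries was 1.43-fold, against 2.84-fold for Pmel, 3.83-fold for Tyrp1 and 3.81-fold for Dct. Mitf is transcribed from several promoters and also in cells without pigment, and the table gives 1 value for the gene. The left and right libraries overlapped for all 10 genes; 0.398% of all genes had sides that did not overlap.

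**Figure D3:**
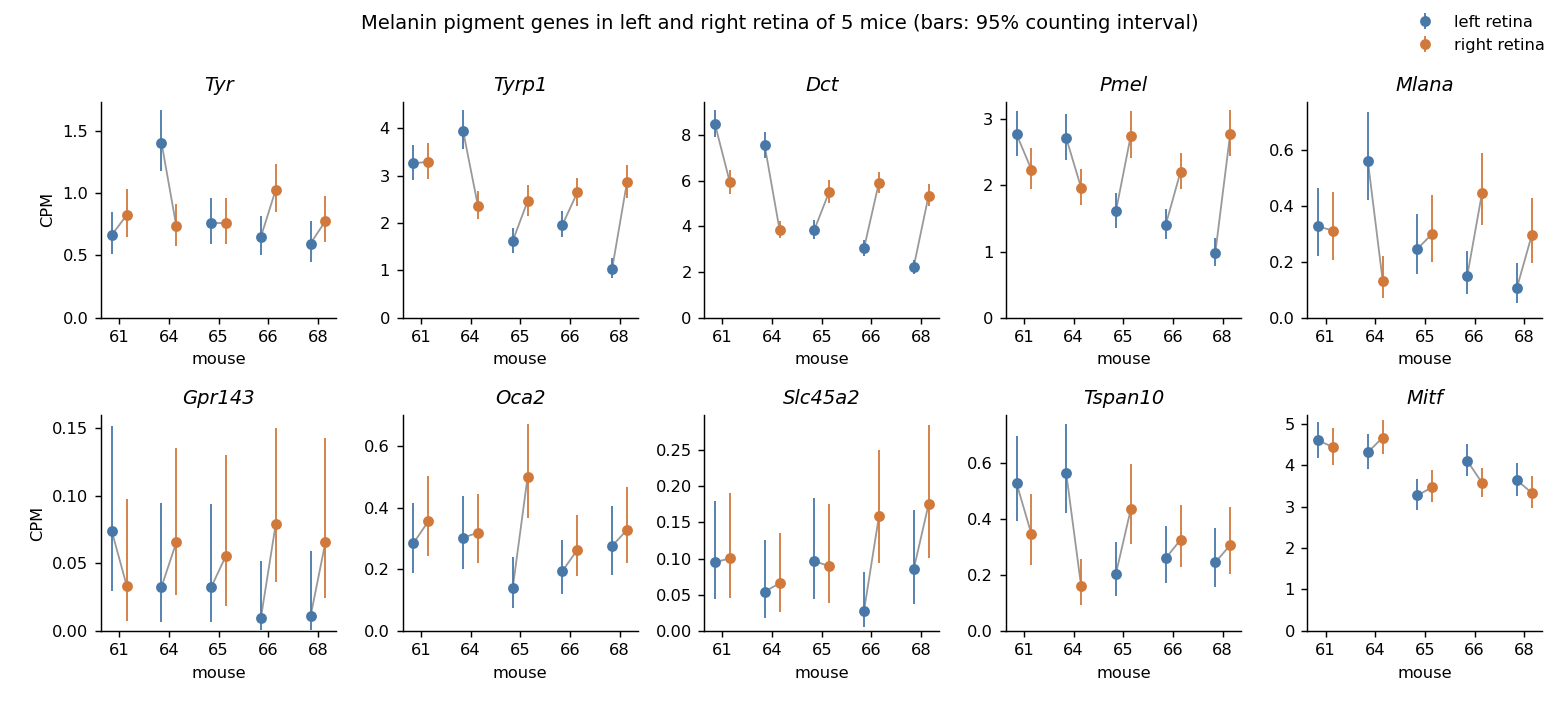
CPM of each pigment gene in the left (blue) and right (orange) retina of 5 mice, joined within a mouse, with the 95% exact Poisson interval, which covers counting error only; the axes start at 0 and differ between genes. In Dct, Tyrp1 and Pmel the lines fall or stay level in mice 61 and 64 and rise in mice 65, 66 and 68, whereas those of Mitf stay nearly level.

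The test of right against left used limma on log2(CPM + 1) with the mouse as a block, fitted on the 14210 genes that averaged 1 CPM or more and adjusted over all of them by Benjamini-Hochberg. Only 4 of the 10 genes passed that filter. None of the 4 was called (limma adjusted p = 0.9996 for each), and 0% of all tested genes were called. Right minus left was 0.27 for Pmel (SE 0.16, 95% interval -0.10 to 0.63), 0.22 for Tyrp1 (SE 0.17, -0.16 to 0.59), 0.18 for Dct (SE 0.23, -0.33 to 0.69) and -0.03 for Mitf (SE 0.06, -0.17 to 0.11), in log2 units. The intervals of Pmel, Tyrp1 and Dct still hold differences above 0.5 in favour of the right eye, and that of Mitf does not reach 0.2 either way. None of the 4 had an unadjusted p under 0.05, as 2.34% of tested genes had. The values stand only for differences between sides, which need not be those between lens and no lens.

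When every gene was tested, with 0.1 CPM added in place of 1 CPM so that weak genes count, again none of the 10 was called and 0% of all genes were (limma adjusted p = 0.999 for each). The highest differences on that scale were those of Oca2 (0.42, SE 0.21), Pmel (0.41), Slc45a2 (0.33), Tyrp1 (0.33) and Gpr143 (0.29), and Dct (0.24), Mlana (0.14), Tyr (0.07), Mitf (-0.04) and Tspan10 (-0.11) followed. With no filter and 1 CPM added, also with none called, Oca2 differed by 0.13 (95% interval 0.00094 to 0.25; limma adjusted p = 0.9996). It was the 1 gene of the 10 with an unadjusted p under 0.05 in limma (0.0486), as 3.30% of all genes had.

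On the scale of the filtered fit, log2(CPM + 1), the differences of 0.27, 0.22 and 0.18 for Pmel, Tyrp1 and Dct depend on single mice. Without mouse 64 they were 0.41, 0.41 and 0.43, and these 3 of the 4 tested genes then had an unadjusted p under 0.05, as had 2.76% of the genes tested, while none was called. Without mouse 68 the 3 differences were 0.10, 0.04 and -0.017, and without mice 65 and 68 they were -0.043, -0.083 and -0.16.

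Within a mouse the ratios of Dct, Tyrp1 and Pmel lay on the same side of 1 in 4 of 5 mice, and the side differed between mice. In mouse 64 Dct was lower on the right at a ratio of 0.510 (right over left), Tyrp1 at 0.597 and Pmel at 0.722. In mouse 68 the ratios were 2.40, 2.78 and 2.84, and in mouse 65 they were 1.43, 1.52 and 1.71. In mouse 66 they were 1.95, 1.35 and 1.58. Mouse 61 stood between, at 0.699, 1.01 and 0.807. The ratios of Mitf were 0.964, 1.08, 1.06, 0.869 and 0.915 in mice 61, 64, 65, 66 and 68.

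Counting intervals show how much of this the depth allows. They are exact binomial intervals of the ratio in 1 pair of libraries, cover counting error only, and compare those 2 libraries, not conditions. There were no molecular identifiers, so copies of a read could not be told from separate reads. The intervals may therefore be too narrow even for counting error. In mouse 64 the interval lay below 1 for 6 of the 10 genes and above 1 for none, where 20.1% and 15.0% of all genes did. In mouse 65 it lay above 1 for 5 and below for none (19.6% and 8.67% of all genes), and in mouse 66 above 1 for 7 and below for 1, Mitf (19.3% and 11.2%). In mouse 68 it lay above 1 for 4 and below for none (12.3% and 14.2%). In mouse 61 it lay below 1 for 2, Dct and Pmel, and above for none (19.2% and 10.0%). The median ratio over the 10 genes was 0.958, 0.659, 1.48, 1.58 and 2.23 in mice 61, 64, 65, 66 and 68, and over all tested genes 0.970, 0.983, 1.04, 1.03 and 0.993. The 10 genes are not independent readings of a pair of eyes, as they share its 2 libraries. In whole tissue, fewer pigmented cells and less RNA per pigmented cell cannot be told apart.

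**Figure D4:**
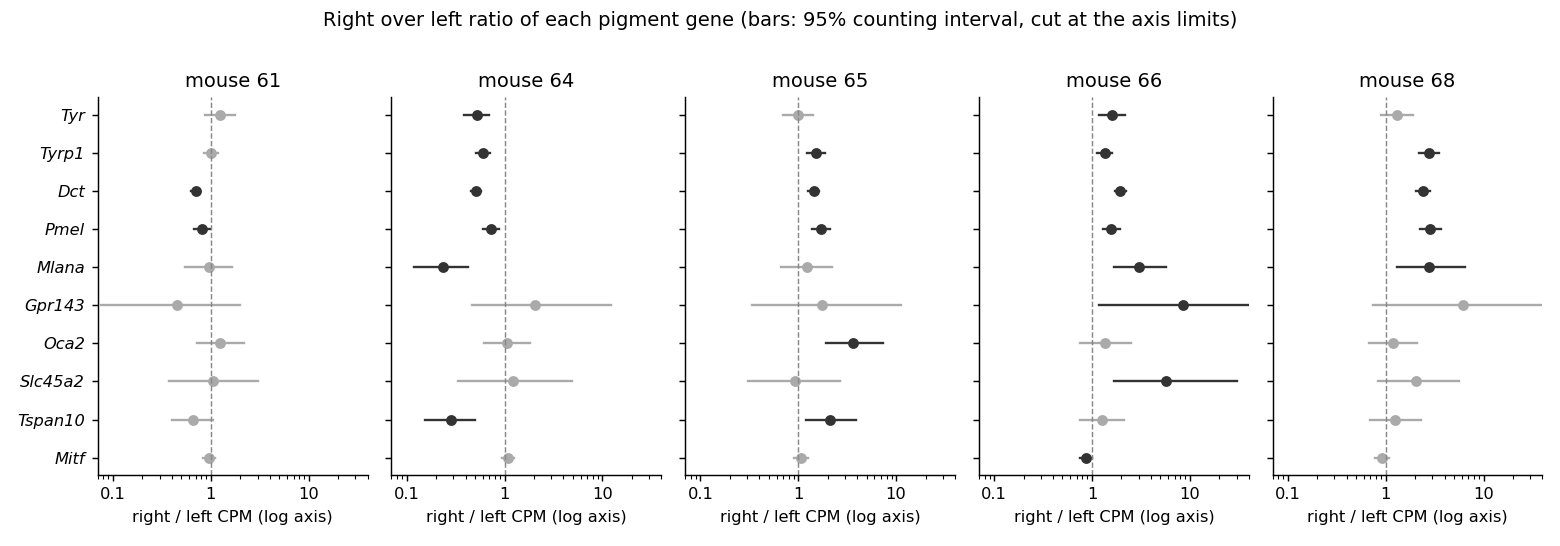
Right over left ratio of CPM (log axis) of each pigment gene in each mouse, with the 95% counting interval; dark points have an interval that does not reach 1. Dark points lie to the left in mouse 64 (6 of 10) and to the right in mice 65 (5), 66 (7, with Mitf to the left) and 68 (4).

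Fellow eyes thus differed more for Dct, Pmel and Tyrp1 than for most genes. Taken over 5 mice, the root mean square difference of fellow eyes was 0.722 log2 units for Dct, 0.544 for Pmel and 0.535 for Tyrp1, above that of 99.6%, 99.2% and 99.1% of tested genes, whose median was 0.131. For Mitf it was 0.101, above 30.5%. Among genes with a mean of 1 to 10 CPM the median was 0.155 and the same genes stood above 99.3%, 98.9%, 98.8% and, for Mitf, 15.2%. No test was made of these ranks.

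Mouse was set against mouse by the moderated F-test of limma on the mouse terms of this fit. None of the 4 tested genes was called, with limma adjusted p of 0.759 for Pmel, 0.478 for Tyrp1, 0.558 for Dct and 0.294 for Mitf, and 0.570% of tested genes were called. At an unadjusted p under 0.05 there was 1 of the 4, Mitf (0.0193), and 13.8% of tested genes. The mouse took 88.7% of the sum of squares of Mitf and the remainder beside mouse and side 10.4%. For Pmel, Tyrp1 and Dct the mouse took 21.0%, 44.6% and 38.2%, and the remainder 60.1%, 46.3% and 57.9%. The medians over all tested genes were 56.1% for the mouse and 35.6% for the remainder.

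Over the 10 libraries the profiles of Dct, Tyrp1 and Pmel were alike. Pearson's r of log2(CPM + 1) was 0.915 for Pmel with Dct, 0.914 for Tyrp1 with Dct and 0.886 for Pmel with Tyrp1. Tyr ran most closely with Mlana (0.869), and Mlana and Tspan10 had r of 0.840 and 0.806 with Dct. Mitf had r of 0.293 with Dct, 0.457 with Tyrp1 and 0.147 with Pmel, and of 0.0089 with Mlana. These are descriptions over 10 libraries that are 5 pairs of fellow eyes and share mouse and depth.

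The genes most like the mean profile of the 4 tested pigment genes were Nxph3 (r = 0.943 over 10 libraries), Fgfrl1 (0.940), Gna11 (0.933), Gga2 (0.921), Gmeb2 (0.919), Gpr35 (0.912), Gpnmb (0.910), Tmem254b (0.903), Ercc1 (0.900), Nt5c3 (0.894), Rictor (0.894) and Amer3 (0.894). Among the 14206 tested genes that are not pigment genes of this set the median r was 0.145, and 9 exceeded 0.9. Of these genes Gpnmb encodes a melanosome glycoprotein related to PMEL, which microglia make as well. It stood at 4.98, 4.69, 2.64, 3.10 and 2.84 CPM in left retinas and at 4.40, 3.29, 4.08, 3.88 and 3.45 CPM in right retinas, lower on the right in mice 61 and 64 and higher in the other 3. Gna11, at 10.0 to 13.6 CPM, and Rictor, at 80.9 to 89.6 CPM, were widely expressed genes with much smaller ranges.

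Other genes of the melanosome had summed levels close to equal in fellow eyes, with right over left ratios between 0.958 and 1.04 in all 5 mice for each of 3 lists, although single genes such as Gpnmb ran with the pigment genes. The list of trafficking genes (HPS, BLOC and AP complexes, RAB proteins, motors) had 28 tested members of 32, of which 12 were higher and 16 lower on the right, with a median difference of -0.01 log2 units. The list of melanosome ion, copper and cystine genes and membrane proteins had 12 tested of 13, 7 higher and 5 lower (median 0.03). That of pigment cell receptors, ligands and transcription factors had 15 tested of 22, 7 higher and 8 lower (median -0.01). Asip, Pax3 and Tfec of the last list were not among the genes of the deposited table. None of the 55 was called between sides or between mice, and the median over all tested genes was 0.00. The lowest unadjusted p values between sides were those of Slc7a11, the cystine transporter (0.55, SE 0.22, limma adjusted p = 0.9996), and of Cd63, a tetraspanin of early melanosomes (0.21, SE 0.09). Without mice 65 and 68 they differed by -0.0013 and 0.073. Among the receptors and factors the lowest were those of Ednrb, an endothelin receptor (0.20, SE 0.10), and Mc1r, the melanocortin receptor (-0.18, SE 0.09). Slc24a5, a potassium-dependent exchanger of pigment cells, and Rab38 lay under the filter, at means of 0.455 and 0.517 CPM. Many members of these lists work in other cells too: Trpm1, named for melanocytes, is the channel of ON bipolar cells and stood at 134.8 CPM, and Otx2 at 58.8 CPM.

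Genes that mark the pigment epithelium outside melanin showed part of the pattern. Rpe65, the retinoid isomerase of the pigment epithelium, stood at 2.01, 2.44, 1.44, 1.60 and 1.35 CPM in left retinas and at 2.51, 1.39, 3.0, 2.19 and 1.97 CPM in right retinas. It was lower on the right in mouse 64, as the enzymes were, and higher in the other 4 mice, mouse 61 included. Rgr, a pigment epithelium and Müller glia opsin, and Ttr, a retinol carrier, did the same. Stra6, Rdh5 and Slc16a8 of the same list were lower on the right in mouse 61 too, as Dct and Pmel were. In mouse 61 Stra6 went from 1.29 on the left to 0.891 CPM on the right, and Rdh5 from 1.64 to 1.53 CPM. In mouse 64 these 3 genes were also lower on the right, and in the remaining mice higher. In mouse 64 Rgr went from 8.50 on the left to 5.05 CPM on the right and Ttr from 7.31 to 4.41 CPM, and in mouse 65 Rgr went from 4.61 to 9.44 CPM and Ttr from 3.73 to 7.90 CPM. Right minus left was 0.21 for Rpe65 (SE 0.14), 0.25 for Rgr (SE 0.17) and 0.24 for Ttr (SE 0.17), with a limma adjusted p of 0.9996 for each. Without mouse 64 these differences were 0.39, 0.48 and 0.45, and without mice 65 and 68 they were -0.0041, 0.072 and 0.035. The genes of lowest unadjusted p in this list were Enpp2 (0.16, SE 0.06), Itgav (0.08, SE 0.04) and Serpinf1 (0.14, SE 0.08), and none was called. Best1, a chloride channel of this epithelium, was near 0, at or under 0.131 CPM in every library. Of the 22 genes of the list 16 were tested, 14 higher and 2 lower on the right with a median of 0.08 and none called. Among all tested genes 7266 of 14210 were higher on the right. Without mice 65 and 68, 10 of the 16 were higher on the right, with a median of 0.05. The sum of the list, which holds genes of the neural retina too, was 251.9 to 284.6 CPM in left and 270.9 to 301.5 CPM in right retinas.

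Markers of other cells that a dissected retina can carry are set beside these values. The summed CPM of the 10 pigment genes on the right was 0.847, 0.667, 1.38, 1.41 and 1.77 times that on the left in mice 61, 64, 65, 66 and 68. For the other pigment epithelium genes the ratios were 0.974, 0.975, 1.20, 1.06 and 1.06. They were 0.742, 1.17, 1.87, 0.898 and 1.45 for 12 iris and ciliary body genes. For 11 fibroblast genes they were 1.07, 1.14, 2.18, 1.03 and 2.0, and for 17 lens genes 1.39, 0.515, 70.8, 3.44 and 2.25. The lens list thus shared the direction of the pigment genes in mice 64, 65, 66 and 68, and the iris and ciliary body list in mice 61, 65 and 68. For 8 skeletal muscle genes the ratios were 1.29, 0.732, 1.12, 0.738 and 0.0580.

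Rod genes summed on the right to between 0.903 and 1.06 times their left value, Müller glia genes to between 0.926 and 1.14 times and vessel genes to between 0.936 and 1.04 times. These small departures from 1 had the direction of the pigment genes in 5 of 5 mice for all 3 lists. Over all tested genes the median ratio was 0.970, 0.983, 1.04, 1.03 and 0.993 in mice 61, 64, 65, 66 and 68. That median went the same way in every mouse but mouse 68, so the direction is not particular to these lists. The melanocyte list ran from 0.921 to 1.12 times. Most of its sum of 38.6 to 47.6 CPM was Tfap2b (mean 36.1 CPM), which cells of the neural retina also make. Its ratio is therefore mainly that of Tfap2b and is no gauge of melanocytes. The defining gene of the list, Sox10, was near 0, at 0.0211 to 0.0875 CPM, and Kit stood at 1.32 to 2.06 CPM. Pax3 was not among the genes of the deposited table. Plvap, of the choroid capillaries, stood at 0.252 to 0.601 CPM, and the smooth muscle gene Cnn1 at or under 0.0557 CPM. The microglia and blood list ran from 0.638 to 1.39 times. It was lower on the right in mice 61 and 64 and higher in mice 65, 66 and 68, as the pigment genes were. Most of its sum was haemoglobin, Hbb-bs, Hba-a1 and Hba-a2 having means of 12.6, 8.65 and 8.78 CPM. The microglia gene Csf1r (mean 2.04 CPM) was higher on the right only in mouse 65. No gene of any of these lists was called between sides. The median right minus left was 0.12 over 5 tested iris and ciliary body genes, 0.36 over 8 fibroblast genes, 1.20 over 13 lens genes, -0.68 over 3 muscle genes, -0.04 over 4 melanocyte genes, -0.02 over 6 vessel genes, -0.03 over 12 rod genes, 0.03 over 10 Müller glia genes and -0.07 over 4 microglia and blood genes. In the fibroblast list Col1a2 (0.40, SE 0.09), Fmod (0.52, SE 0.17) and Col1a1 (0.31, SE 0.13), and in the lens list Bfsp1 (0.62, SE 0.18), Crygb (0.83, SE 0.32) and Crygs (1.49, SE 0.58), had the lowest unadjusted p. Without mouse 65 the lens median was 0.48, over the 11 genes still tested, and without mice 65 and 68 it was 0.35 over 12, while the fibroblast median was 0.16 over 7 and that of iris and ciliary body -0.07 over 4. Without mouse 68 no muscle gene passed the filter. Between mice Krt18 of the pigment epithelium list, Nr2e3 of the rods, Spc25 of the Müller glia and Hba-a2 of blood were called. The part of these cells in the differences between fellow eyes was not tested.

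**Figure D5:**
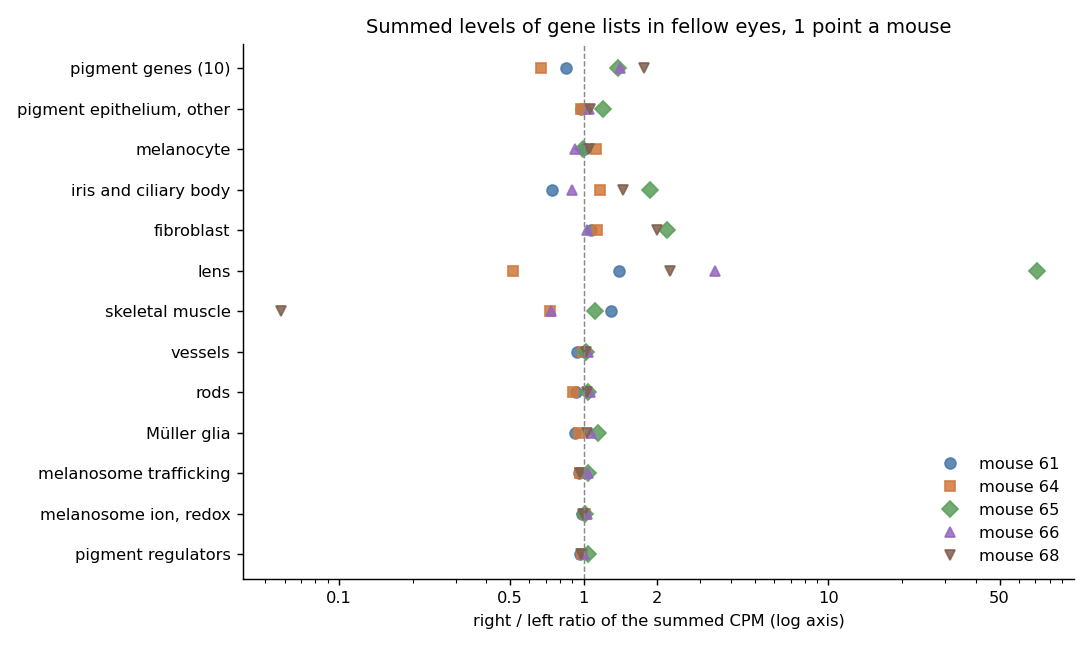
Right over left ratio of the summed CPM (log axis) of the 10 pigment genes and of the gene lists, 1 point a mouse. The microglia and blood list, with ratios from 0.638 in mouse 64 to 1.39 in mouse 66, is not drawn. The pigment genes run from 0.667 in mouse 64 to 1.77 in mouse 68, the 3 melanosome and regulator lists stay near 1, and the lens list reaches 70.8 in mouse 65.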

How the data were processed

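RNA of 10 retinas was sequenced from ribosome-depleted, strand-specific total RNA libraries, per the labels' protocols. The submitters' processing notes name STAR, Partek and genome GRCm38 (mm10), without versions. How reads were counted is not given in the sources used here, and values deposited by the authors were taken as CPM with 0.0001 added, which was removed. That unit was read from the values: within a library low values are multiples of 1 step; 90.3% to 91.5% of them were whole within a tolerance of 0.1, too few for a count test, so the limma design was used. All 100 values of the pigment genes were whole, and their implied counts gave the exact intervals (95%). Values are not divided by gene length.

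Tests used limma 3.58.1 (R 4.3.3) on log2(CPM + 1), a scale that understates changes of weak genes, over genes averaging 1 CPM or more, with trend, two-sided, a threshold of 0.05 and terms for side and mouse. Intervals came from scipy 1.17.1. Retinas of a number come from 1 animal, and their deviations from the side means correlated at 0.607, 0.143, 0.166, 0.172 and 0.311 in mice 61, 64, 65, 66 and 68. The fits were tried on simulated data first. The text names all 10 pigment genes; the 12 tested genes with a name (no predicted genes) whose profile is most like the mean of the tested pigment genes; and a set of markers (Rpe65, Rgr, Ttr and the like). The rule also takes, from each other list, the 3 genes of lowest p in either test, of which the text prints a part. The genes, the lists and the naming rule were chosen with earlier results of these data known. Alternatives were other pseudocounts, no filter, 2 rescalings, no trend, no block and leaving out mice. Gene starts and ends are as deposited, the end 1 base before the listed stop, and those of the 10 genes match GENCODE M21. Promoter sequences are from RefSeq (GRCm38.p6). Protein sequences were not used here.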

Additional observations from a re-analysis of the deposited data

Results flagged for a closer look

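Of 20 sets of 5 libraries (10 genes on 2 sides), 2 had an end value far from the rest by Dixon's 95% criterion, which chance passes in about 1 of 20 sets. In mouse 64 Tyr reached 1.41 CPM on the left, where the next highest library had 0.762 CPM. Dct was at 3.85 CPM on the right in the same mouse, where the next lowest library had 5.34 CPM. Both values belong to mouse 64. Only the Dct value is from its right retina, the library for which the labels report a damaged raw file, and the Tyr value is from its left retina. The cause was not tested.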

How the results depend on the processing

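No pigment gene was called between sides or between mice under any alternative that was run. The replicate block, in which the mouse pairs fellow eyes, changed no call: with no replicate block 0 of the 4 tested genes were called, and 188 genes in all had an unadjusted p under 0.05, against 333. Directions were less firm. Without mouse 68 the difference of Dct turned to -0.017, and without mouse 66 that of Mitf to 0.0047. Without mice 65 and 68, an alternative chosen after the data had been seen as was that of no filter with 0.1 CPM, the differences of Pmel, Tyrp1 and Dct turned to -0.043, -0.083 and -0.16. Leaving out 1 mouse at a time gave 0.10 to 0.41 for Pmel, 0.04 to 0.41 for Tyrp1, -0.017 to 0.43 for Dct and -0.059 to 0.0047 for Mitf. The median difference of the 10 genes within a mouse depends on the pseudocount, since most of them are weak: with 5 CPM it was -0.11 in mouse 64 in place of -0.38, and with 0.1 CPM it was 0.61 in mouse 66 in place of 0.24 and 0.58 in mouse 68 in place of 0.14. Rescaling the libraries turned no direction of the 4 tested genes. The number of all tested genes called between mice ran from 23 (without mouse 61) to 93 (median-ratio scaling), against 81; it was 36 with no trend, 39 without mouse 68, 41 without mice 65 and 68 and 53 without mouse 66. Depth limits Gpr143 and Slc45a2 most, with at most 9 and 18 counts in a library.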
